A study of Homo sapiens with 4 samples.

Results

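A group of 108 genes was lower in the TET1 library than in the control of HeyC2 ovarian cancer cells and higher in the TET1 library than in the control of SKOV3 cells. The genes were taken from 11888 genes that reached a mean of at least 1 FPKM (a fragment number scaled by transcript length and library size) over the 2 libraries of each cell line, out of 26506 listed. For each cell line, the log2 ratio of TET1 over control was computed on the deposited FPKM with 1 added to both values, and the median of the cell line was subtracted. Members were selected on this centred value alone, which is called the relative log2 fold change below. Genes at or below -0.8 in HeyC2 (784 genes, 6.59% of 11888) and at or above 0.8 in SKOV3 (1332 genes, 11.2%) formed the group, which is 0.908% of the genes compared. The direction of change was therefore fixed by the choice, and the fold changes of the members are given as a description without a test.

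HeyC2 and SKOV3 are established human ovarian carcinoma lines. Each was transfected with a pCMV6/TET1 plasmid (genotype TET1 overexpressed), in which a CMV promoter drives the full-length demethylase, or with the empty plasmid (genotype Wild-type), and all 4 cultures were kept in Geneticin. One RNA-seq library was made per condition, so there are 4 libraries and no difference has a replicate check. Whether the selected cells were pools or single clones is not given in the sources used here, and a change due to TET1 cannot be told apart from a change between the selected cultures. The study asked how expression of TET1, an enzyme that oxidises 5-methylcytosine, reprograms ovarian cancer cells.

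A set of 10 members stands on a list of targets of ATF4, the transcription factor of the integrated stress response, and the results below begin with it. Among these members, ASNS, PHGDH, PSAT1, PCK2 and MARS encode enzymes of amino acid and phosphoenolpyruvate synthesis or a tRNA synthetase. In this response, kinases that sense amino acid shortage, unfolded protein, double-stranded RNA or haem shortage phosphorylate the translation factor eIF2α. General translation then slows while the mRNA of the transcription factor ATF4 is translated more. ATF4 binds DNA as a dimer with C/EBP proteins and induces enzymes of serine and asparagine synthesis, aminoacyl-tRNA synthetases, amino acid transporters and the stress genes DDIT3, TRIB3 and CHAC1. Much of its control is on translation and protein level, which RNA-seq does not measure.

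The FPKM of both TET1 libraries had been multiplied by a constant before deposit, so that GAPDH equals its control value (5417.35 FPKM in HeyC2 and 2248.44 in SKOV3). The constants recovered from the value steps were 3.23 for HeyC2 TET1 and 1.35 for SKOV3 TET1. Without them, GAPDH was at 1675 FPKM in HeyC2 TET1 and at 1671 FPKM in SKOV3 TET1, below its control in both lines. Levels are given below as FPKM before this scaling, and relative log2 fold changes as computed on the deposited values unless said otherwise. On that earlier scale, all 108 members were lower in HeyC2 TET1 than in its control and all 108 were higher in SKOV3 TET1 than in its control. The rule leaves almost no other outcome, so this is not a separate result. As deposited, only 23 were lower in HeyC2 TET1 and 84 were higher, since the median of all genes there was shifted by 1.61 on the log2 scale (0.59 in SKOV3). The TET1 gene itself was at 0.20 and 0.52 FPKM in HeyC2 and at 0.43 and 1.80 FPKM in SKOV3 (control and TET1). Depth, estimated from the steps of the lowest values, was 6850000 to 7620000 fragments per library, and 15162 to 16941 genes were above 0. Of the carcinoma markers, KRT8, KRT18 and PAX8 were at 74.6 to 775 FPKM in all 4 libraries, while WT1 and MUC16 were at or near 0. In HeyC2 the epithelial markers EPCAM (0.09 and 0.38 FPKM), CLDN3 (0.12 and 0.40 FPKM) and KRT19 (0.62 and 1.59 FPKM) were also near 0, CDH1 was listed at 0 in both libraries, and the mesenchymal marker VIM was at 7496 and 2927 FPKM. Other carcinoma markers were high there, with KRT7 at 290 and 1125 FPKM and MSLN at 46.55 and 77.5 FPKM. In SKOV3, KRT7 and KRT19 were at 1537 and 255 FPKM without TET1 and at 22 and 0.461 FPKM with it. CD3E and MS4A1 were listed at 0 in all 4 libraries, and CDH5, an endothelial cadherin, was at 18.9 and 94.6 FPKM in the HeyC2 libraries. CD68, a macrophage marker, was at 56.2 and 90.2 FPKM there, and COL1A1, a fibroblast collagen, was at 0.32 and 27.7 FPKM in SKOV3. Other markers of these cell types were low. In HeyC2, the endothelial PECAM1 was at 0.09 and 0.03 FPKM and VWF at 0.42 and 0.17 FPKM. The leukocyte markers CD14 (0.40 and 0.33 FPKM) and PTPRC (0.09 and 0 FPKM) were also low there. In SKOV3, the fibroblast markers COL3A1 and PDGFRB were at 0 and 0.56 FPKM and at 0 and 0 FPKM.

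**Figure D1:**
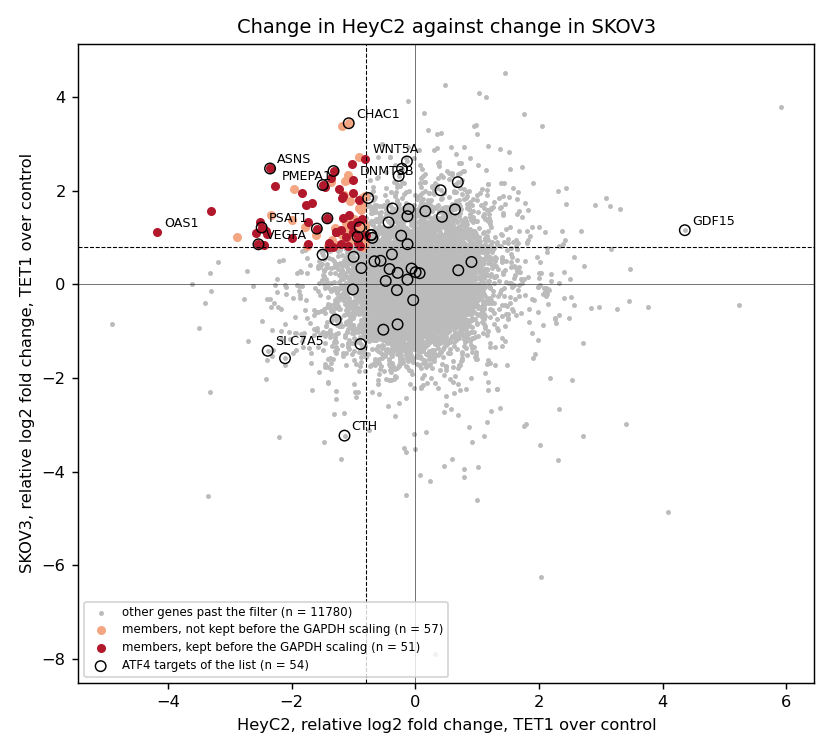
Relative log2 fold change in HeyC2 (x axis) against that in SKOV3 (y axis) for the 11888 genes compared. Dashed lines mark -0.8 and 0.8. The 108 members fill the upper left corner, and 51 of them (dark red) kept their place when the GAPDH scaling was taken off. Black rings mark the 54 ATF4 targets, of which 10 lie in that corner.

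The scaling bears on who is a member. A constant of 3.23 followed by adding 1 lowers the relative value of weakly expressed genes. A gene at 0.5 FPKM in both HeyC2 libraries before scaling would obtain a relative log2 fold change of -0.81, against -0.01 at 10 FPKM. In SKOV3 the same genes would obtain -0.43 and -0.19. The centring has a part in both SKOV3 values, since the SKOV3 median was 0.19 before scaling. With the rule applied before scaling, 59 genes qualified, 51 of them members (47.2% of the 108), and 8 were additional. Of the 57 members not kept, 32 were below the expression limit in HeyC2, 4 were below it in SKOV3 alone, and 21 had HeyC2 values between -0.79 and -0.27. None of those 21 missed the SKOV3 threshold. The kept members had a median of 9.34 FPKM in the HeyC2 control (1.88 to 111.2) and the others 1.26 FPKM (0.54 to 7.89).

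**Figure D2:**
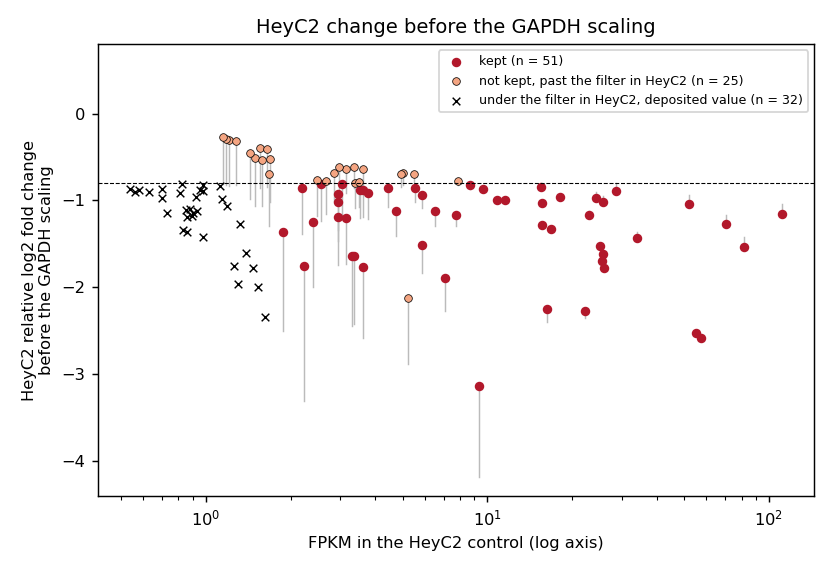
Relative log2 fold change of the members in HeyC2 before the GAPDH scaling (y axis) against FPKM in the HeyC2 control (x axis, log scale). Grey lines lead to the value on deposited FPKM, the dashed line is -0.8, and crosses are 32 members under the expression limit before scaling, drawn at their deposited value. The 51 kept members lie at 1.88 FPKM and above.

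The number of fragments behind the members was small in the libraries where they were low. Estimates were possible for 103 members with an annotated transcript length. Their medians were 86.7 and 32.4 fragments in HeyC2 control and TET1, and 32.4 and 167 in SKOV3. Under 20 fragments were estimated for 17 and 39 members in the HeyC2 libraries and for 38 and 5 in the SKOV3 libraries. Exact 95% binomial intervals of the log2 ratio of TET1 over control per fragment sequenced lay below 0 in HeyC2 for 77 of 103 members and above 0 in SKOV3 for 100. For the kept members both held in 49 of 49, and for the others in 27 of 54. These intervals cover counting error only, not the spread between cultures. Members were chosen on the same libraries, so the side of 0 is tied to the choice. The counts are a description and no evidence of a change. In bulk RNA, fewer cells that express a gene and less RNA per cell cannot be told apart.

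The control levels of the members differed between the lines. In 73 of 108 members (67.6%) the HeyC2 control was above the SKOV3 control, against 39.7% of all genes compared. In the TET1 libraries HeyC2 was higher in 6 members (5.56%), against 34.6% of all genes. The order of the lines was thus turned in 67 members (62.0%, all genes 14.1%). Since the controls enter both fold changes, this turn is tied to the rule. Median levels of the members were 2.97 and 1.06 FPKM in HeyC2 (control and TET1) and 1.71 and 6.74 FPKM in SKOV3. All genes compared had medians of 10.1 and 10.7 FPKM in HeyC2 and 11.9 and 13.5 FPKM in SKOV3, so the group lies in the lower range of expression.

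Asparagine synthetase (ASNS, chr7:97480989-97501854 on hg19) had the largest value when members were ranked by the smaller of both absolute changes. ASNS stood at 22.2 FPKM in the HeyC2 control and 3.99 in HeyC2 TET1, while the levels in SKOV3 were 9.61 FPKM without and 65.4 FPKM with TET1. It was 5.57-fold lower with TET1 in HeyC2 and 6.80-fold higher in SKOV3. The relative log2 fold changes were -2.35 and 2.48. With an estimated 370 and 60 fragments in HeyC2 and 149 and 978 in SKOV3, the intervals of the log2 ratio were -2.89 to -2.08 and 2.48 to 2.99.

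The proximal promoters of ASNS and of CHAC1, the ATF4 target with the largest SKOV3 value, are shown because both hold the 8 letters TGATGNAA, which ATF4 with a C/EBP partner binds. The 250 bases before the RefSeq start on GRCh38.p14 are printed 5′ to 3′ on the strand of the gene, with the match on either strand in capitals. The ASNS stretch is chr7:97872409-97872658 (minus strand) and its match starts 68 bases before the start of the gene. The CHAC1 stretch is chr15:40953221-40953470 (plus strand), and its match, read on the other strand, starts 209 bases before it.
ASNS: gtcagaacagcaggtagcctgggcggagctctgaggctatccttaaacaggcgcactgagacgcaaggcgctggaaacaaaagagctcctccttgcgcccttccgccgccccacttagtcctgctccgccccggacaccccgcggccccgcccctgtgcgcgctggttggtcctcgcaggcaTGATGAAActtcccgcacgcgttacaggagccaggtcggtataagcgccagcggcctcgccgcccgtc
CHAC1: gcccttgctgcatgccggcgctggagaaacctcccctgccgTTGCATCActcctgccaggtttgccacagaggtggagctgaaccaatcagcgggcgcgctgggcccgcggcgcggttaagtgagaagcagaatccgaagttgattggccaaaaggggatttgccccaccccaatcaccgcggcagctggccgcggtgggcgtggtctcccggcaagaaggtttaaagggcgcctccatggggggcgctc

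The first and second enzymes of serine synthesis had the same pattern. PHGDH (chr1:120191034-120286841), which oxidises 3-phosphoglycerate, was at 81.3 and 28.7 FPKM in HeyC2 and at 25.5 and 78.2 FPKM in SKOV3, control and TET1 in turn. PSAT1 (chr9:80912041-80945009), the aminotransferase of the next step, was at 55.1 and 9.15 FPKM in HeyC2 and at 112 and 294 FPKM in SKOV3. For PHGDH the control of HeyC2 was close to the TET1 level of SKOV3, whereas PSAT1 was higher in SKOV3 under both conditions. Their relative log2 fold changes were -1.42 and 1.41 for PHGDH and -2.48 and 1.22 for PSAT1. PSPH, which completes the pathway and is no member, had values of 0.16 in HeyC2 and 1.57 in SKOV3, so it shared the SKOV3 direction alone.

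PCK2, the mitochondrial enzyme that forms phosphoenolpyruvate from oxaloacetate, was at 16.9 and 6.43 FPKM in HeyC2 and at 6.02 and 41.4 FPKM in SKOV3. That is 2.62-fold lower and 6.87-fold higher with TET1. MARS, the cytosolic methionyl-tRNA synthetase, was at 52.0 and 25.9 FPKM in HeyC2 and at 46.0 and 106 FPKM in SKOV3. The controls of both lines were close for MARS, and the TET1 libraries lay on opposite sides of them.

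The stress genes followed. DDIT3, which encodes the transcription factor CHOP, was at 25.8 and 8.08 FPKM in HeyC2 and at 34.4 and 89.8 FPKM in SKOV3. TRIB3, a pseudokinase induced by ATF4 and CHOP, was at 25.1 and 8.42 FPKM in HeyC2 and at 13.1 and 68.1 FPKM in SKOV3. They were 3.19-fold and 2.98-fold lower with TET1 in HeyC2 and 2.61-fold and 5.19-fold higher in SKOV3. CHAC1, which degrades glutathione, was low in 3 libraries (3.49 and 1.70 FPKM in HeyC2, 2.84 FPKM in the SKOV3 control) and reached 46.0 FPKM in SKOV3 TET1. Its 16.2-fold difference in SKOV3 gave the largest relative value of the group there (3.45). Its HeyC2 difference rested on 35 and 15 estimated fragments and came to -0.79 before scaling, just outside the threshold. VLDLR, a lipoprotein receptor, was at 2.97 and 1.70 FPKM in HeyC2 and at 5.43 and 16 FPKM in SKOV3, and was not kept before scaling either (-0.61 in HeyC2).

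VEGFA, the vascular growth factor, stands in the lists of ATF4 and of HIF targets. It was at 57.4 and 9.19 FPKM in HeyC2 and at 66.0 and 135 FPKM in SKOV3. The controls were close, and the 6.25-fold difference in HeyC2 was larger than the 2.05-fold difference in SKOV3. It was the single member among 33 HIF targets and glycolytic genes past the filter (3.03%, beside 0.908% of all genes). Nothing is read from a single member. These 33 genes had medians of -0.30 in HeyC2 and -0.42 in SKOV3.

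**Figure D3:**
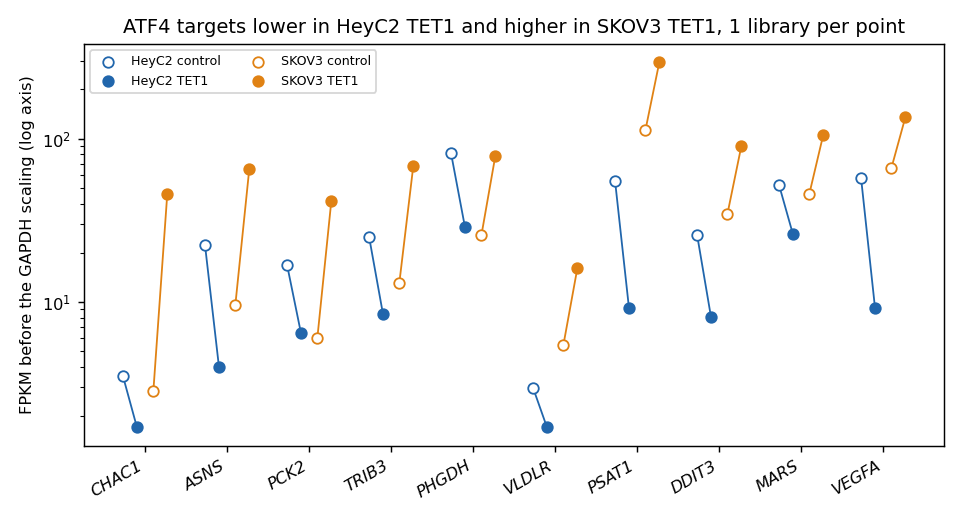
FPKM before the GAPDH scaling (y axis, log scale) of the 10 members among the ATF4 targets (x axis, in order of SKOV3 change) in 4 libraries. Open circles are controls and filled circles TET1 libraries, HeyC2 in blue and SKOV3 in orange, 1 library per point without error bars. Blue lines lead down and orange lines up for each gene, as the choice of members requires. The TET1 levels were lower in HeyC2 than in SKOV3 for each of them.

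Of 61 listed ATF4 targets, 54 passed the filter in both lines and 10 (18.5%) were members, beside 0.908% of all genes. The list was written with earlier results of these data known, so its count is not independent evidence. In HeyC2, 19 of 54 (35.2%) were at or below -0.8, beside 6.59% of all genes. In SKOV3, 29 of 54 (53.7%) were at or above 0.8, beside 11.2%. Their median relative log2 fold change was -0.45 in HeyC2 and 0.93 in SKOV3, beside 0.01 and -0.04 over all genes. Before scaling they were -0.59 and 0.90, and 11 of 52 targets qualified, among them GARS, MTHFD2 and SESN2, which are no members on the deposited values.

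The 10 members were not the only targets that were high in SKOV3 TET1. Another 18 passed 0.8 in SKOV3 with HeyC2 values within the limits. Among them were the stress sensor SESN2 (-0.76 in HeyC2 and 1.85 in SKOV3), the mitochondrial folate enzyme MTHFD2 (-0.71 and 1.06) and the ATF4 partner CEBPG (-0.71 and 1.06). The transsulfuration enzyme CBS (-0.27 and 2.32) and the mTORC1 inhibitor DDIT4 (-0.21 and 2.48) had HeyC2 values closer to 0. The SKOV3 value was above the HeyC2 value in 46 of 54 targets (85.2%), beside 47.1% of all genes. The 10 members are among the 46 by the rule, so this share is a description. Within the limits in both lines were 13 targets, among them the aminoacyl-tRNA synthetases EPRS, IARS, LARS, NARS, SARS, TARS and WARS.

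Some ATF4 targets were low with TET1 in both lines, and they include transport of cystine and large neutral amino acids. SLC7A11, the cystine transporter, was at 7.44 and 1.54 FPKM in HeyC2 and at 34.4 and 12.5 FPKM in SKOV3. SLC7A5, the large neutral amino acid transporter, was at 16 and 2.76 FPKM in HeyC2 and at 424 and 177 FPKM in SKOV3. CTH, the enzyme after CBS in cysteine synthesis, was at 3.05 and 1.42 FPKM in HeyC2 and at 16.2 and 1.30 FPKM in SKOV3. These genes and ATF5 were at or below -0.8 in both lines, that is 4 of 54 (7.41%), beside 1.45% of all genes. In the other direction GDF15, a secreted stress cytokine, was at 3.92 and 95 FPKM in HeyC2 and was the single target at or above 0.8 in both lines. None of 17 amino acid transporters was a member, which is near the 0.908% of all genes, and nothing is read from it. Of these transporters, 6 (35.3%) were at or below -0.8 in HeyC2, beside 6.59% of all genes. At or above 0.8 in SKOV3 were 3 (17.6%), beside 11.2%. Of 25 genes of amino acid and one-carbon synthesis, 4 (16%) were members, beside 0.908%. They were ASNS, PHGDH, PSAT1 and PCK2, which are also among the 10 members on the ATF4 list.

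**Figure D4:**
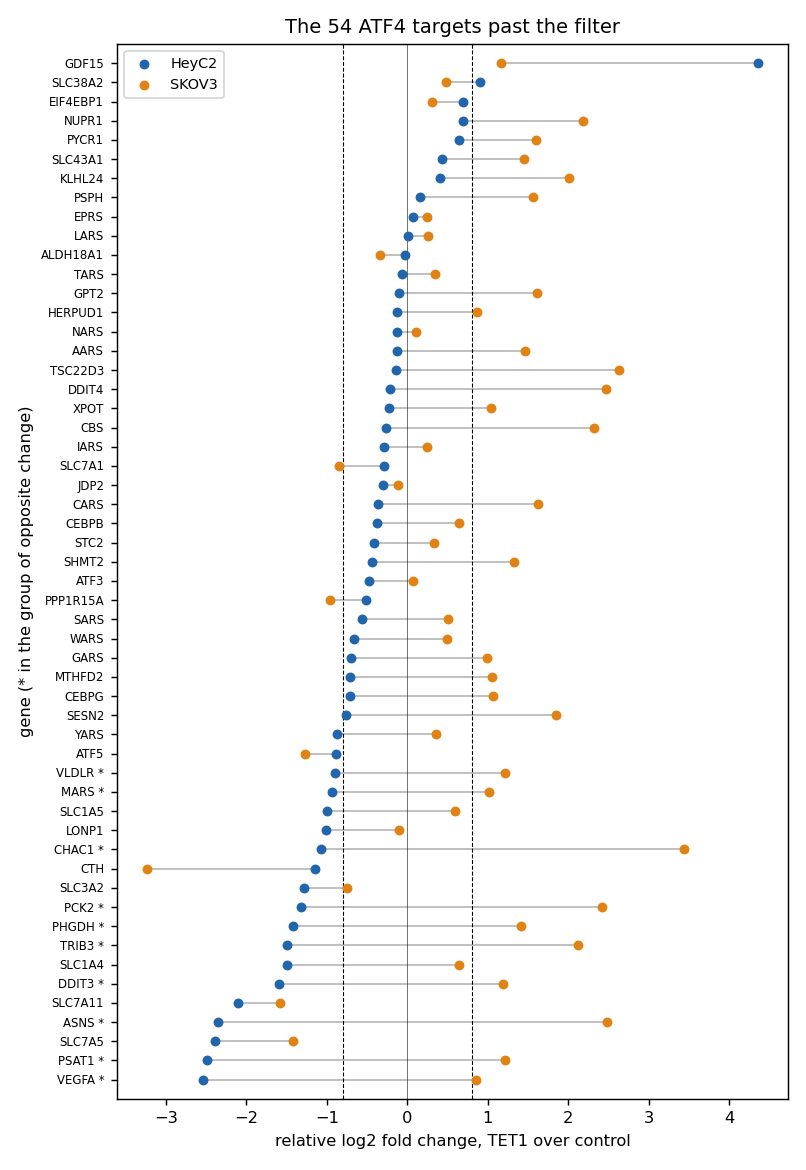
Relative log2 fold change (x axis) in HeyC2 (blue) and SKOV3 (orange) of the 54 ATF4 targets past the filter, ordered by HeyC2 (y axis). Grey lines join the lines' values of a gene, asterisks mark the 10 members, and dashed lines are -0.8 and 0.8. The orange point lies to the right of the blue one in 46 of 54 targets, with CTH, GDF15 and ATF5 among those where it does not. The rule requires this order for the 10 members.

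Of 16 kinases and regulators of the response past the filter, 3 (18.8%) were at or below -0.8 in HeyC2 (DDIT3, TRIB3 and ATF5), beside 6.59% of all genes, and 4 (25%) were at or above 0.8 in SKOV3 (ATF4, CEBPG, DDIT3 and TRIB3), beside 11.2%. All of these genes but ATF4 are also on the list of ATF4 targets, and DDIT3 and TRIB3 are members. The shares are therefore not separate from those of the targets. ATF4 itself was at 283 and 298 FPKM in HeyC2 and at 224 and 448 FPKM in SKOV3, which gave 0.16 and 0.83. It was not lower in HeyC2 TET1. The 10 targets in the group were lower there by the choice of members, and 19 of all 54 targets were at or below -0.8. The eIF2α kinases EIF2AK1 (HRI), EIF2AK2 (PKR), EIF2AK3 (PERK) and EIF2AK4 (GCN2) had values between -0.36 and 0.21 in HeyC2 and between -0.69 and 0.24 in SKOV3. PPP1R15A, the phosphatase subunit that ends the response, was at 58.8 and 39.2 FPKM in HeyC2 and at 88.9 and 50.7 FPKM in SKOV3 and thus lower in both. ATF5, a relative of ATF4, had -0.89 and -1.27. Of the 16, 2 were members (DDIT3 and TRIB3, 12.5%, beside 0.908% of all genes). The medians were -0.35 and 0.04, the latter just below 0 under 3 other settings. Of 25 ER chaperones and folding genes none was a member, with medians of -0.12 and -0.07. Among 20 cytosolic aminoacyl-tRNA synthetases 1 was (MARS, 5%), with medians of -0.21 and 0.26. The share over all genes was 0.908%, so in lists of this size nothing is read from these counts.

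The second set was growth factor and morphogen signalling with 13 members, a grouping made after the values were seen. It holds ligands, receptors and modulators. PDGFB, a platelet-derived growth factor chain, was at 33.9 and 12.5 FPKM in HeyC2 and at 2.23 and 16.7 FPKM in SKOV3. WNT5A, a ligand of noncanonical Wnt signalling, was at 15.5 and 8.55 FPKM in HeyC2 and at 1.63 and 18.2 FPKM in SKOV3. For both ligands HeyC2 was higher in the controls and SKOV3 in the TET1 libraries. The HeyC2 value of WNT5A (-0.81) was close to the threshold, whereas its SKOV3 difference was 11.2-fold. NTN1 and SEMA3D, guidance ligands, were low throughout, at 0.07 to 6.41 FPKM.

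Of 19 genes of the TGF-β and BMP response past the filter, 3 were members (15.8%, beside 0.908% of all genes) and 11 were at or above 0.8 in SKOV3 (57.9%, beside 11.2%). Their medians were 0.15 in HeyC2, which became -0.029 with upper-quartile centring, and 0.85 in SKOV3. The list was split in both lines, with values from -2.27 to 2.53 in HeyC2 and from -3.24 to 2.88 in SKOV3. In HeyC2, 4 of the 19 were at or above 0.8 (805 of all 11888 genes), and only the 3 members were at or below -0.8. In SKOV3, 5 of the 19 were at or below -0.8 (1324 of all 11888 genes). PMEPA1 (chr20:56223448-56286592), a TGF-β-induced inhibitor of the same pathway, was second in rank of the group. It was at 7.08 and 1.27 FPKM in HeyC2 and at 5.64 and 31.2 FPKM in SKOV3, a 5.57-fold and a 5.54-fold difference in opposite directions. LTBP1, which stores latent TGF-β in the matrix, was at 1.47 and 0.37 FPKM in HeyC2 and at 5.40 and 16.1 FPKM in SKOV3. The type I receptor TGFBR1 was at 9.66 and 5.08 FPKM in HeyC2 and at 4.46 and 9.98 FPKM in SKOV3. LTBP1 was under the HeyC2 expression limit before scaling, and PMEPA1 and TGFBR1 were kept.

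Members of other signalling pathways were mostly at low levels. The Hedgehog receptor PTCH1 was at 2.86 and 1.5 FPKM in HeyC2 and at 0.49 and 3.25 FPKM in SKOV3, and the Hedgehog co-receptor GAS1 at 1.88 and 0.17 FPKM in HeyC2 and at 0.05 and 2.2 FPKM in SKOV3. GAS1 rested on an estimated 3 fragments in HeyC2 TET1 and 1 in the SKOV3 control, with intervals of the log2 ratio from -5.99 to -2.01 and from 2.92 to 10.8. RGS3, a regulator of G-protein signalling, was the member with the highest HeyC2 levels, at 111.2 and 51.3 FPKM, and was at 30.4 and 83.8 FPKM in SKOV3. LRIG1, a negative regulator of ErbB receptors, was at 4.72 and 1.73 FPKM in HeyC2 and at 2.82 and 7.16 FPKM in SKOV3. DNER and DACT1 completed this set, and 9 of its 13 members were kept before scaling.

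Among 14 members that act in transcription and chromatin was DNMT3B, a de novo DNA methyltransferase and thus an enzyme that adds the mark TET1 oxidises. DNMT3B (chr20:31350191-31397165) was at 5.52 and 2.74 FPKM in HeyC2 and at 8.59 and 49.4 FPKM in SKOV3. Its 5.76-fold difference in SKOV3 rested on 250 and 1401 estimated fragments and its 2.02-fold difference in HeyC2 on 174 and 78. The related enzymes were looked up after this value was seen. DNMT3A had 0.16 in HeyC2 and 0.78 in SKOV3, where it was 2.28-fold higher with TET1 and just under the threshold. It thus shared the SKOV3 direction alone. DNMT1 had -0.20 and -1.21. TET2 (-0.59 and -0.51) and TET3 (-0.12 and 0.12) did not pass either threshold.

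BHLHE41, a circadian repressor, was at 5.85 and 1.51 FPKM in HeyC2 and at 1.09 and 8.27 FPKM in SKOV3. It is on the short arm of chromosome 12, where the median of all genes in HeyC2 was -0.71, while its own value was -1.83. The vitamin D receptor VDR was at 3.77 and 1.64 FPKM in HeyC2 and at 1.04 and 4.35 FPKM in SKOV3, and the kinase HIPK2 at 15.6 and 7.46 FPKM and at 4.71 and 13.2 FPKM. EHF, an epithelial ETS factor, was under 1 FPKM in both HeyC2 libraries and at 13.0 and 29.4 FPKM in SKOV3. Before scaling 6 of these 14 members were kept, and EHF and the zinc finger genes ZNF283, ZNF607 and ZNF790 were among those that were not.

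Genes of innate immunity were also among the members. OAS1, an interferon-induced sensor of double-stranded RNA, had the lowest HeyC2 value of the group (-4.18). It was at 9.34 and 0.23 FPKM in HeyC2, from 102 and 2 estimated fragments (interval of the log2 ratio -8.59 to -3.63), and at 0.76 and 3.53 FPKM in SKOV3. The cytidine deaminase APOBEC3F was at 16.4 and 2.80 FPKM in HeyC2 and at 0.41 and 2.59 FPKM in SKOV3, and SLFN5 at 24.3 and 12.4 FPKM and at 3.53 and 16.8 FPKM. OAS1 was the single member among 29 interferon-stimulated genes past the filter (3.45%, beside 0.908% of all genes), and nothing is read from this count. The medians of these 29 genes were -0.41 and 0.51. Its relatives OAS2 (-2.11) and OAS3 (-2.30), looked up after its value was seen, shared the HeyC2 direction but not that in SKOV3. There OAS3 was also low (-1.40), and OAS2 was under the expression limit at 0.44 and 0.39 FPKM.

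Other enzymes included GFPT2, which makes glucosamine 6-phosphate from fructose 6-phosphate and glutamine. It was at 25.9 and 7.16 FPKM in HeyC2 and at 2.51 and 12 FPKM in SKOV3. The mitochondrial nucleotidase NT5M was at 2.95 and 1.04 FPKM in HeyC2 and at 1.59 and 11.5 FPKM in SKOV3. HGD and AASS, which degrade tyrosine and lysine, and the ganglioside enzyme ST3GAL5 were also members, and AASS was at 7.89 and 4.42 FPKM in HeyC2 but at 0.10 and 1.68 FPKM in SKOV3. KCNG1, a potassium channel subunit, was at 25.6 and 7.55 FPKM in HeyC2 and at 2.13 and 11 FPKM in SKOV3. PNMA2, a paraneoplastic antigen, was at 1.30 and 0.25 FPKM in HeyC2 and at 1.84 and 12.3 FPKM in SKOV3, and was not kept before scaling.

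CD24, a surface glycoprotein used as a marker of epithelial and tumour cells, had the highest mean level of the group. It was at 166 and 352 FPKM in SKOV3, a 2.13-fold difference, but at 1.15 and 0.85 FPKM in HeyC2. Its HeyC2 value was -0.81 on the deposited scale and -0.27 before scaling, so it is a member through the scaling. After CD24, the members with the highest means were PSAT1, RGS3, VEGFA and MARS, and these 4 were kept.

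**Figure D5:**
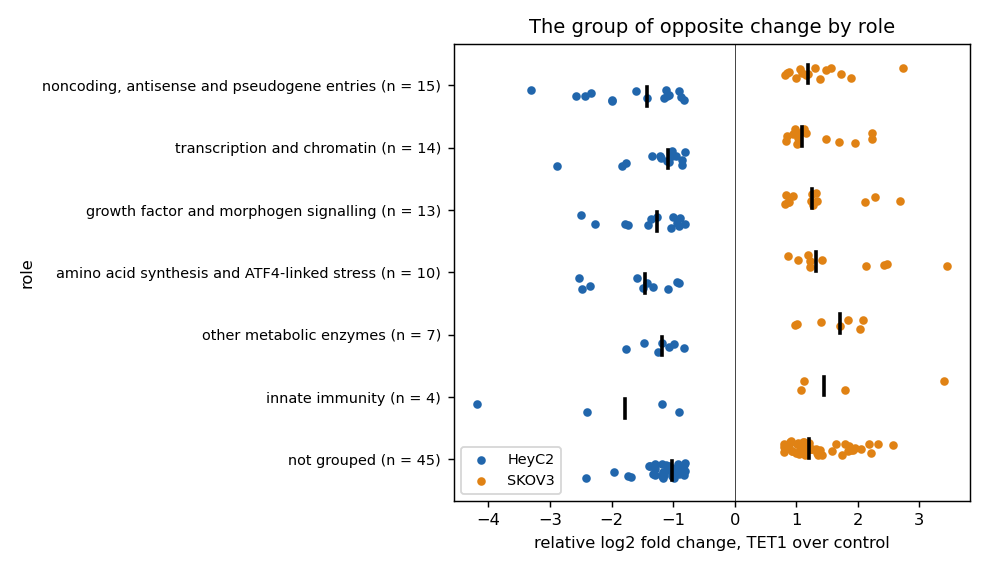
Relative log2 fold change (x axis) of the 108 members in HeyC2 (blue) and SKOV3 (orange) by role (y axis), 1 point per gene, with black bars at the medians. Medians over the 6 named roles ranged from -1.79 to -1.09 in HeyC2 and from 1.09 to 1.70 in SKOV3. The values of the roles overlap, and the gap around 0 follows from the rule.

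Noncoding, antisense or pseudogene entries numbered 15, and 4 of them were kept before scaling. NKILA, a lncRNA that binds the NF-κB complex, lies head to head with PMEPA1 and overlaps it by 1381 bases (chr20:56285212-56286592). It was at 1.62 and 0.18 FPKM in HeyC2 and at 0.87 and 5.07 FPKM in SKOV3, like its neighbour, but with 3 estimated fragments in HeyC2 TET1 (interval of the log2 ratio -5.53 to -1.49). BCDIN3D and BCDIN3D-AS1 overlap by 5101 bases (chr12:50229826-50234926), and MARS and DDIT3 by 982 bases at their 3′ ends (chr12:57910371-57911352). Whether the counting used the strand is not given in the sources used here. Without it, reads from these shared stretches cannot be assigned to 1 gene of a pair, so the members of each pair are not independent. Overlap with a gene on the other strand was found for 22 of 103 members (21.4%), beside 26.0% of all genes.

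NSFP1, a pseudogene copy of NSF, was listed at 2.23 and 0 FPKM in HeyC2 and at 2.74 and 11.6 FPKM in SKOV3. NSF itself, whose sequence it shares, had -0.52 and 0.03. NSFP1 and the entries GUSBP2, RGPD6, HIST1H2AI, TRIM16L, FAM106CP, LOC728392 and CHURC1-FNTB have near-identical copies or are readthrough transcripts, and their values are uncertain because reads could be divided between copies. TERC, the telomerase RNA, and ARF4-AS1 rested on an estimated 0 to 11 fragments per library. LINC01504, which is of the top 12 by rank, was listed at 1.53 and 0.29 FPKM in HeyC2 and at 0 and 2.17 FPKM in SKOV3, with 17 fragments or fewer in each library.

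At the edge of the group, the members nearest inside the thresholds were C1QTNF1 (-0.804 and 1.07), CACHD1 (-1.39 and 0.804) and FAM78A (-1.33 and 0.803). Nearest outside were the interferon-induced gene IFIT2 (-0.797 and 0.84), VPS9D1-AS1 (-0.797 and 0.81) and DOC2A (-0.794 and 1.43). IFIT2 was at 10.5 and 5.94 FPKM in HeyC2 and at 1.31 and 3.88 FPKM in SKOV3, a pattern like that of several members.

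No member was found in the lists for NRF2 or p53 targets, immediate early genes, NF-κB cytokines, cholesterol synthesis, the cell cycle, YAP/TEAD targets, metallothioneins, epithelial junctions, matrix genes, autophagy or heat shock. These lists held 5 to 37 genes past the filter, so at 0.908% a count of 0 is near the background and nothing is read from it. Before scaling, SESN2 of the p53 targets qualified. The cell cycle list was low with TET1 in both lines, with medians of -1.28 and -1.12 over 37 genes. Genes of the opposite kind, higher with TET1 in HeyC2 and lower in SKOV3 by the same thresholds, numbered 92. A further 185 genes were high and 172 low with TET1 in both lines. Of 103 members matched to the GENCODE annotation, 91 were protein coding (88.3%, all genes 95%) and 11 were lncRNA genes. Their median transcript length was 3382 bases and their median GC content 50.5%, beside 3269 bases and 48.2% over all genes compared. Chromosome 17 held 14 members (13.6%, all genes 6.07%), chromosome 12 held 12 (11.7%, all genes 5.21%), chromosome 9 held 11 (10.7%, all genes 4.11%) and chromosome 1 held 4 (3.88%, all genes 10.2%). On the short arm of chromosome 12 lay BHLHE41, GPR162, LRRC23, LYRM5 and STK38L, that is 4.85% of the matched members beside 1.19% of all genes. These shares were looked at after the members were known, and the part of the lower values along that arm in their membership was not tested. GAPDH, the gene of the scaling, lies on that arm as well (chr12:6643678-6647540).

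RefSeq promoter windows, from 250 bases before to 50 bases after a start, were found for 76 members (139 windows). The letters TGATGNAA, searched on both strands, were in 8 of 139 windows (5.76%, exact 95% interval 2.52% to 11%), beside 1.82% of the windows of all genes compared and 3.62% of all 35116 windows. The interval treats windows as independent, although some windows of a gene overlap. The 8 windows belonged to ASNS, CHAC1, MARS, ALPK2, AOC2, ARID5B, FOXP1 and PTPRD. Of 9 ATF4-target members with a window, 3 held a match, and in MARS it lay after the start. The cyclic AMP element TGACGTCA was also in 8 windows (5.76%), beside 2.91% for all genes compared. The AP-1 letters TGANTCA (6.47%, beside 5.01%), the NRF2 letters TGACNNNGC (13.7%, beside 14.5%), the HIF letters ACGTG (20.9%, beside 25.7%) and the TEAD letters GGAAT (28.8%, beside 29.8%) had shares near those of all genes compared. The heat shock element was in 0.719% (beside 0.352%) and the ER stress element in 0 of 139 windows. A match is a description of letters and does not show binding.

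CpG density bears on an enzyme that acts on methylated CpG, and was compared for the same windows. The observed over expected CpG ratio had a median of 0.719 over the 76 members, beside 0.833 over 9550 genes compared. It was at least 0.6 in 54 of 76 members (71.1%), beside 83.7%. No DNA methylation was measured in these libraries, and the part of the members' lower FPKM, given above, in this difference was not tested.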

How the data were processed

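RNA-seq data of HeyC2 and SKOV3 cells were used, with 1 library per condition. The authors prepared TruSeq libraries, sequenced them as read pairs, aligned the reads to hg19 with Bowtie2 2.2.6 and quantified them with RSEM 1.2.17, and deposited FPKM as a table for each line. The annotation and the use of strand are not given in the sources used here. The deposited FPKM of each TET1 library lie on multiples of a constant that equalises GAPDH (100% of distinct values below 40 FPKM), and dividing by it gave the FPKM before scaling.

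The relative log2 fold change took a pseudocount of 1, used genes that reached a mean of 1 FPKM, and was centred on the median of the cell line. The values are thus on the log2(FPKM + 1) scale, and because the pseudocount was added after the GAPDH scaling, it lowers the relative values of low genes, more so in HeyC2. With 1 library per condition, no test was run and no p-value is given. The group, the gene lists and the roles were chosen with earlier results of these data known. Genes were named by rule: the 12 with the largest smaller change, members in a list, the 5 with the highest mean FPKM, the 3 nearest on each side of the thresholds, TET1, GAPDH, ATF4 and the regulators of the integrated stress response. Members named for their role, and all other genes named, were chosen after their values were seen. The values of 1 member are not reported here.

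Coordinates, lengths and GC content are from GENCODE release 44 mapped to GRCh37, the build of hg19, by symbol (103 of 108 members matched). Promoters are from RefSeq on GRCh38.p14. Depth is the value that brings low FPKM of genes with 1 transcript closest to whole fragments, and fragments per gene are estimates. Alternatives were pseudocounts of 0.1 and 0.01, FPKM before scaling, TPM, a mean of at least 5 FPKM, no filter, thresholds of 0.6 and 1, upper-quartile centring, correction for GC content and length in 20 bins each, and promoter windows of 100 bases. Added after the data were seen were FPKM before scaling with a pseudocount of 0.1, and leaving out the short arm of chromosome 12. Python 3.11.15, numpy 2.4.6, pandas 2.3.3, scipy 1.17.1 and matplotlib 3.10.9 were used.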

Additional observations from a re-analysis of the deposited data

Results flagged for a closer look

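Opposite change in both cell lines marks all 108 genes of the group, which follows from how they were chosen, and the difference between the lines was not tested, since each condition has 1 library.

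The ATF4 targets had medians of opposite sign, -0.4547 in HeyC2 and 0.9289 in SKOV3 (relative log2 fold change, 54 genes). The difference between the lines was not tested.

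The interferon-stimulated genes also had medians of opposite sign, -0.4144 in HeyC2 and 0.5113 in SKOV3 (29 genes), and this difference was not tested either.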

How the results depend on the processing

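The number of genes lower in HeyC2 and higher in SKOV3 depended most on the setting. It was 163 with a pseudocount of 0.01 (88 of the 108 members shared), 59 before the GAPDH scaling (51 shared), 43 at a mean of at least 5 FPKM (32 shared), 381 without a filter (75 shared), 252 at thresholds of 0.6 (108 shared), 56 at thresholds of 1 and 223 with upper-quartile centring (108 shared), which puts the median of all genes at -0.18 in HeyC2 and 0.14 in SKOV3. It stayed within 1.5 times of 108 with a pseudocount of 0.1 (157), TPM (110, 65 shared), the correction for GC content and length (105, 87 shared), a pseudocount of 0.1 before scaling (116, 65 shared) and without the short arm of chromosome 12 (103). Of the members, 21 were kept under all 10 alternatives of the calculation other than the 2 added ones, among them ASNS, PHGDH, PSAT1, PCK2, DDIT3, TRIB3, PMEPA1, PDGFB and DNMT3B. The number of ATF4 targets in the group lay between 7 and 15.

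List medians that moved were all in HeyC2 but 1. A pair of medians near 0 changed sign: that of the TGF-β and BMP response in HeyC2 was -0.029 with upper-quartile centring, and that of the regulators of the integrated stress response in SKOV3 was -0.0032 with a pseudocount of 0.1, -0.0065 with 0.01 and -0.0099 with TPM. For the aminoacyl-tRNA synthetases the HeyC2 median was -0.35 with a pseudocount of 0.1, -0.37 with 0.01, -0.33 before scaling, -0.35 with TPM, -0.064 without a filter, -0.39 with upper-quartile centring and -0.34 with a pseudocount of 0.1 before scaling. For the regulators of the integrated stress response it was -0.21 without a filter and -0.53 with upper-quartile centring. For the ATF4 targets it was -0.63 with upper-quartile centring and -0.61 with a pseudocount of 0.1 before scaling. With upper-quartile centring it was also -0.34 for amino acid and one-carbon synthesis, -0.48 for HIF targets (-0.28 in SKOV3) and -0.59 for interferon-stimulated genes. In the 100 bases next to the start, the AP-1 letters were in 2.16% of member windows, NRF2 in 5.76%, HIF in 7.91%, TEAD in 8.63% and heat shock in 0, as a shorter window holds fewer matches. No called value of a named gene changed sign. No paired analysis was possible because each condition has 1 library per cell line. This leaves the difference between the cell lines no residual degree of freedom.

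Depth limits the weakly expressed members: 39 of 103 had under 20 estimated fragments in HeyC2 TET1 and 38 in the SKOV3 control, and 1 library per condition gives no measure of the spread between cultures.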
